A study of Mus musculus with 12 samples.

Results

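The genes Havcr1, Lcn2, Spp1, Clu, Vcam1, Sox9, Anxa2, Cd44 and Vim are known as markers of tubule injury and failed repair, and their RNA was followed in 12 mouse kidney libraries. These 9 were chosen by name among the 27179 genes in the table, for their known role and not by a cut on these values, although earlier results of these data were known at the time. Levels are given in TPM, the share of a gene's transcripts among those of its library after correction for gene length.

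The study compared wild-type mice with FAN1KO mice, in which Ggt1-Cre (γGT1-Cre) removed Fan1, a nuclease gene of DNA crosslink repair, from the proximal tubule only. All mice were labelled as being of mixed strain background and 8 to 12 weeks old, and whole kidneys were sequenced. Cisplatin, a drug that crosslinks DNA, was injected into the abdomen at 2 mg/kg each week for 5 weeks, and the control mice received saline. Each genotype under each treatment was a group of 3 mice, so there were 4 groups. The study's methods state that mice of both sexes were used, and the labels do not give the sex of each mouse.

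After injury, proximal tubule cells lose their transport program, turn on dedifferentiation genes and shed or secrete proteins into urine and interstitium. Cells that recover switch these genes off again, while cells that fail to recover keep them on and express adhesion molecules such as Vcam1. Havcr1 (KIM-1, a phosphatidylserine receptor), Lcn2 (NGAL, a siderophore-binding protein), Spp1 (osteopontin, a secreted ligand of integrins) and Clu (clusterin, a secreted chaperone) are products found in urine or matrix. Vcam1 (a ligand of leukocyte integrins), Sox9 (a transcription factor of regenerating tubules), Anxa2 (a phospholipid-binding protein), Cd44 (the hyaluronan receptor) and Vim (vimentin, an intermediate filament protein) mark altered or dedifferentiated cells.

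The libraries held 37201916 to 82947187 reads, as recovered from the spacing of the TPM values. The defining proximal tubule markers were high in every saline library, where the 16 genes of that list summed to 22175 to 95420 TPM. Fan1 itself was low throughout, at 1.98 to 3.80 TPM in the wild-type saline libraries and 1.17 to 2.28 TPM in the FAN1KO saline libraries, and at 2.33 to 3.57 TPM and 1.55 to 3.51 TPM under cisplatin. These ranges overlapped, so the gene-level value in whole kidney did not check the labels of a deletion limited to one cell type. RNA of Y-linked genes was present in wild-type cisplatin 1, FAN1KO cisplatin 3, wild-type saline 3 and FAN1KO saline 1, so in 1 library per group, and not in the other 8. The Y-linked libraries stood apart for the markers: in both wild-type groups that library was the lowest for 9 of 9, and in FAN1KO saline for 6 of 9. FAN1KO cisplatin 3 was the lowest of its group for 5 of 9 and the highest for Havcr1 and Vcam1. For the markers, results are therefore given with and without these 4 libraries where a call changes or the fold moves by more than 1.5 times. In whole kidney, fewer cells of a type and less RNA per cell cannot be told apart.

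The genes lie on 6 chromosomes of GRCm38.p6, the mm10 build that the submitters' processing notes name. Lcn2 (chr2:32384637-32387739), Vim (chr2:13574311-13582826) and Cd44 (chr2:102811141-102901669) are on chromosome 2. Havcr1 (chr11:46739822-46779578) and Sox9 (chr11:112782210-112787757) are on chromosome 11. Vcam1 is at chr3:116110020-116129688, Spp1 at chr5:104435111-104441053, Anxa2 at chr9:69453683-69491792 and Clu at chr14:65968483-65981548. Anxa2 and Cd44 each contain a small RNA gene, Mir3109 and Gm23731, so a few of their reads may be shared.

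The bases before the start of Spp1 and Anxa2 are shown as examples. Both genes rose under cisplatin in FAN1KO kidneys, as did the other markers. Their RefSeq promoter windows (GRCm38.p6, plus strand) reach outside annotated exons. Spp1 covers chr5:104434861-104435110 and Anxa2 covers chr9:69453433-69453619, cut at the first annotated exon. Capitals mark the letters of the TATA box motif, TATAAA, at -211 from the start of Spp1. In Anxa2 they mark the Sp1 motif GGGCGG and, further on, the AP-1 motif as it reads from the other strand.
Spp1: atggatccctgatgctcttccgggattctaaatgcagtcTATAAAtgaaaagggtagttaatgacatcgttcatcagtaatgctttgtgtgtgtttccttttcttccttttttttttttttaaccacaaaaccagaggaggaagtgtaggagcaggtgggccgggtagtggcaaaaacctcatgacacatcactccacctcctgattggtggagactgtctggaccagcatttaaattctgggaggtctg
Anxa2: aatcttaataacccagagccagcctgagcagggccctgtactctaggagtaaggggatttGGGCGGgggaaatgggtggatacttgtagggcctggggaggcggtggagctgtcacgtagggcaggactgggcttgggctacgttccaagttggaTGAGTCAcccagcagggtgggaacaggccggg
Motifs were searched on both strands of the 250 bases before each start. RefSeq windows were at hand for Havcr1, Lcn2, Spp1, Anxa2, Cd44 and Vim, with 9 windows in all for these 6 genes. TGACTCA (AP-1) was in the Anxa2 window alone among them, and in 4.46% of the 32851 promoters searched. The window of Vim held the longer NF-kB motif, found in 1.41% of promoters, and the match overlaps one to the shorter NF-kB motif GGGNTTTCC (1.46%). GGGCGG (Sp1, 32.7% of promoters) was in the windows of Lcn2 and Anxa2, and TATAAA (12.4%) in those of Spp1, Anxa2 and Vim. The Lcn2 match lies in an annotated exon. So do the Anxa2 matches to TATAAA (at -17 from the start) and to GGGCGG at -48 and -24, which are outside the stretch printed above. TTCNNNGAA (STAT, 7.02%) and ACAATG (SOX, 10.7%) were in none of the 9. These matches are descriptions of the letters in the windows.

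Under cisplatin, RNA of 8 of the 9 markers was higher in FAN1KO than in wild-type kidneys. Lcn2 differed most, with a mean 16.8 times that of the wild-type mice, followed by Havcr1 at 8.78 times. Spp1, Sox9, Clu and Anxa2 were 5.05 to 5.73 times higher, Cd44 3.78 times and Vcam1 3.11 times. Vim did not pass the test. For comparison, 19.6% of the 14972 genes tested were called higher in this comparison (limma, adjusted p under 0.05), and 35.7% were higher in all 3 FAN1KO mice than in all 3 wild-type mice, as were 8 of the 9 markers. The median log2 fold change was 2.32 over the markers and 0.24 over all genes tested.

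**Figure D1:**
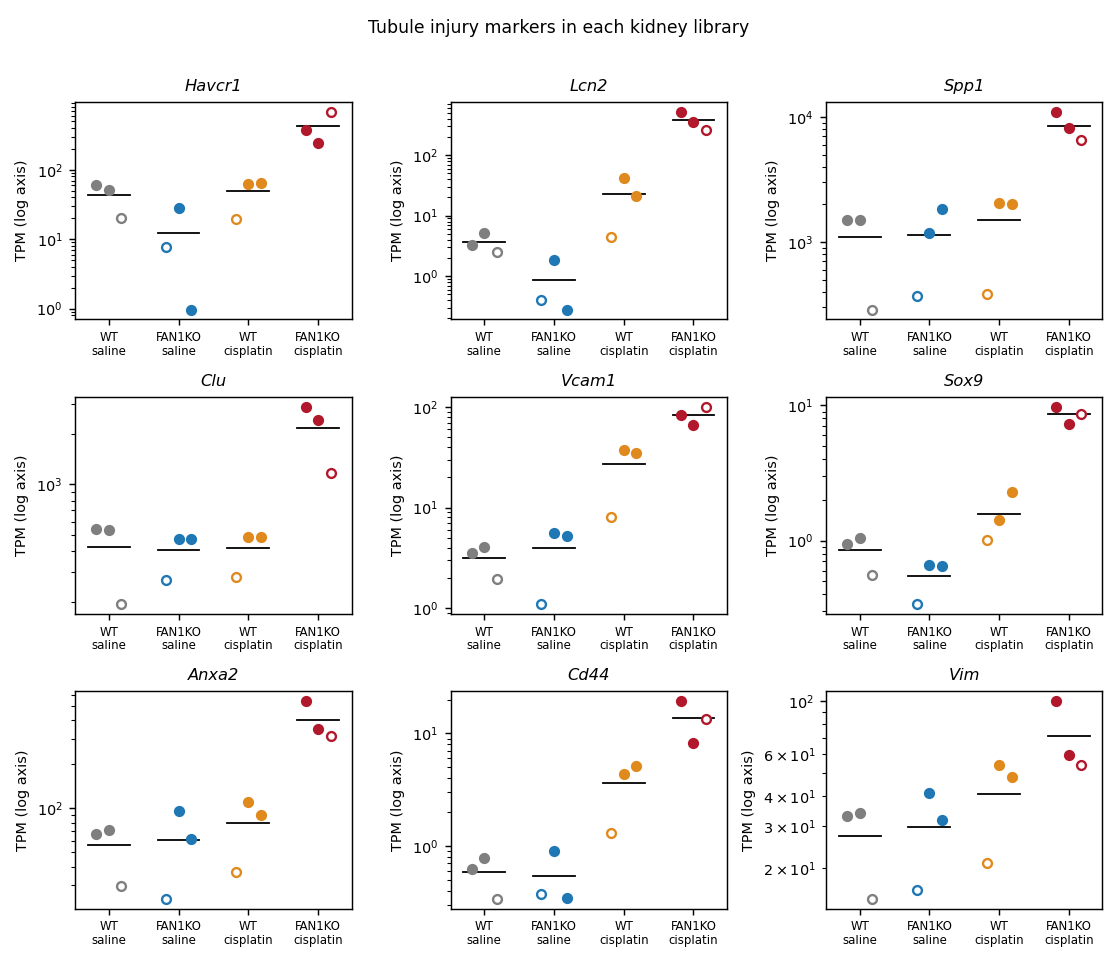
TPM of each marker (log axis) in the 12 libraries, by group (WT, wild-type). Each point is 1 mouse, the line is the group mean of 3 mice, and open points are the 4 libraries with Y-linked RNA. The FAN1KO cisplatin points lie above all other points for 8 of the 9 genes, and overlap with wild-type cisplatin only for Vim.

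Havcr1 was at 19.6, 63.2 and 64.9 TPM in wild-type cisplatin kidneys 1 to 3. It was at 373, 243 and 679 TPM in FAN1KO cisplatin kidneys 1 to 3. The lowest FAN1KO kidney was above the highest wild-type kidney, and the highest value was that of FAN1KO cisplatin 3, the library with Y-linked RNA. The log2 fold change was 3.16 ± 0.86 (SE), with a limma adjusted p of 0.0251, and the exact two-sided permutation p was 0.1, the smallest that 3 against 3 mice allow. In the 8 libraries without Y-linked RNA the fold change was 2.22 and the call was lost (limma adjusted p = 0.130).

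Lcn2 was at 4.37, 42.1 and 20.8 TPM in the wild-type cisplatin kidneys and at 517, 349.8 and 265 TPM in the FAN1KO cisplatin kidneys. The groups were far apart, although the wild-type kidneys differed among themselves, with kidney 1 the lowest. This was a log2 fold change of 4.41 ± 0.64 (SE, limma adjusted p = 0.00152). Without the Y-linked libraries it was 3.80 (limma adjusted p = 0.00161).

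Spp1 was the most abundant of the 9 genes in every library. It was at 382, 2071 and 2024 TPM in the wild-type cisplatin kidneys and at 10987, 8121 and 6549 TPM in the FAN1KO cisplatin kidneys. In these FAN1KO kidneys it ranked 5th, 9th and 14th among all genes by TPM, against 43rd to 324th in the wild-type cisplatin kidneys. On the log2 scale Spp1 was higher by 2.84 ± 0.83 (SE, limma adjusted p = 0.0328). Without the Y-linked libraries this difference was 2.205 (limma adjusted p = 0.00101). Spp1 made up 50.6 to 76.2% of the summed TPM of the 9 genes in each of the 12 libraries.

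Clu was at 281, 486 and 483 TPM in the wild-type cisplatin kidneys and at 2910.5, 2427 and 1164 TPM in the FAN1KO cisplatin kidneys. All FAN1KO values were higher, and FAN1KO cisplatin 3 had less than the other two. Its log2 fold change was 2.32 ± 0.46 (SE, limma adjusted p = 0.00646).

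Among the markers of altered tubule cells, Sox9 was low in level and had the smallest SE. It was at 1.01, 1.42 and 2.30 TPM in the wild-type cisplatin kidneys and at 9.80, 7.32 and 8.66 TPM in the FAN1KO cisplatin kidneys. The values did not overlap and varied little within FAN1KO. Sox9 was higher by 1.92 ± 0.21 on the log2 scale (SE, limma adjusted p = 4.44e-04).

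Vcam1 was at 8.16, 37.6 and 35.3 TPM in the wild-type cisplatin kidneys and at 84.5, 66.2 and 101 TPM in the FAN1KO cisplatin kidneys. The groups did not overlap, but wild-type kidneys 2 and 3 stood well above wild-type kidney 1. The log2 fold change was 1.84 ± 0.57 (SE, limma adjusted p = 0.0397). This call was the least secure of the 8: it was lost under 11 of the 23 alternatives, for instance with a pseudocount of 0.1 (limma adjusted p = 0.0676) or median-ratio scaling (0.0579). Without wild-type cisplatin 1 the fold change was 1.16 (limma adjusted p = 0.121). In the libraries without Y-linked RNA it was 1.02 and passed the test (0.00237).

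Anxa2 was at 37.0, 111 and 90.4 TPM in the wild-type cisplatin kidneys and at 541, 351 and 311 TPM in the FAN1KO cisplatin kidneys, with no overlap. Its log2 fold change was 2.42 ± 0.54 (SE, limma adjusted p = 0.0112). Cd44 was at 1.31, 4.38 and 5.15 TPM in the wild-type cisplatin kidneys and at 19.4, 8.19 and 13.4 TPM in the FAN1KO cisplatin kidneys, again with no overlap. Its log2 fold change was 1.71 ± 0.38 (SE, limma adjusted p = 0.0107). All 9 markers passed the filter of at least 1 TPM in at least 3 libraries, but Cd44 reached 1 TPM in the 6 cisplatin libraries only, and Sox9 in these 6 and 1 saline library, so both entered the test through the treated mice.

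Vim was at 20.9, 54.4 and 48.0 TPM in the wild-type cisplatin kidneys and at 100.2, 59.5 and 54.2 TPM in the FAN1KO cisplatin kidneys. FAN1KO cisplatin 3 lay just below wild-type cisplatin 2, so the groups overlapped. The log2 fold change was 0.84 with a 95% interval of -0.17 to 1.84 (limma adjusted p = 0.205, exact permutation p = 0.2). With the Y-linked libraries as a term in the fit, Vim was also called (0.86, limma adjusted p = 0.00724), and 9 of 9 markers were then higher, in a fit that called 40.3% of all genes higher.

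The count of markers called depended on single libraries. Without FAN1KO cisplatin 1, which was the highest of its group for 7 of the 9, only Lcn2, Clu and Sox9 were called, as were 7.81% of all genes as higher. Without wild-type cisplatin 1, the lowest of its group for all 9, the calls of Havcr1, Spp1 and Vcam1 were lost and 5 stayed, against 9.63% of all genes. In the 8 libraries without Y-linked RNA, 7 of the 9 were called, all but Havcr1 and Vim, against 28.9% of all genes. Lcn2, Clu and Sox9 passed under each of the 23 alternatives.

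**Figure D2:**
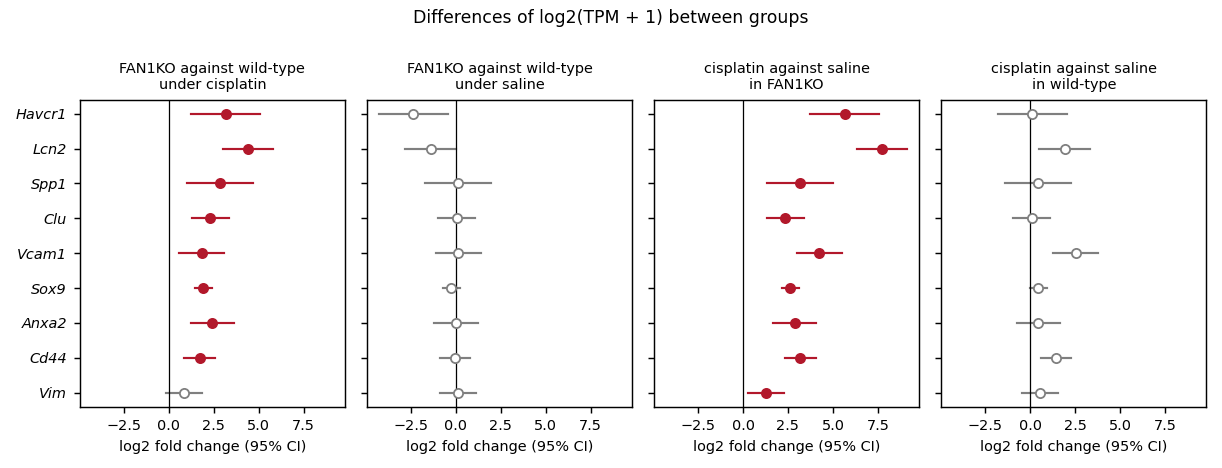
Log2 fold change of each marker (points) with its 95% interval (lines) from limma on log2(TPM + 1), for the 4 comparisons of 3 against 3 mice. Filled points have an adjusted p under 0.05: 8 of 9 for genotype under cisplatin, none for genotype under saline, 9 of 9 for cisplatin in FAN1KO and none for cisplatin in wild-type.

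Under saline, none of the 9 markers differed between genotypes at an adjusted p under 0.05 (limma), and 1, Havcr1, had an unadjusted p under 0.05. Voom on recovered reads also called 0. Of all genes tested, 0.768% were called in either direction. Havcr1 was at 60.5, 50.3 and 20.4 TPM in the wild-type saline kidneys and at 7.61, 27.8 and 0.972 TPM in the FAN1KO saline kidneys. The means were 43.7 ± 20.8 and 12.1 ± 14.0 TPM (SD, n = 3), and the groups overlapped because FAN1KO saline 2 was above wild-type saline 3. The log2 fold change was -2.37 ± 0.86 (SE, limma adjusted p = 0.411).

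Lcn2 was at 3.34, 5.21 and 2.48 TPM in the wild-type saline kidneys and at 0.401, 1.86 and 0.281 TPM in the FAN1KO saline kidneys. All 3 FAN1KO kidneys were below all 3 wild-type kidneys, as were those of 7.83% of all genes tested. For Lcn2 the log2 fold change was -1.40 ± 0.64 (SE, limma adjusted p = 0.603). These FAN1KO levels rested on 10, 38 and 6 reads, so their counting error was large. For the other 7 markers the saline log2 fold changes were between -0.25 and 0.12 and the groups overlapped. With 3 mice a group the intervals were wide, from -1.72 to 1.94 for Spp1.

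In FAN1KO kidneys all 9 markers were higher after cisplatin than after saline, and for each of the 9 every cisplatin kidney was above every saline kidney. Of all genes tested, 34.9% were called higher and 47.4% were higher without overlap. The median log2 fold change was 3.16 over the markers and 0.37 over all genes. This comparison shares the FAN1KO cisplatin mice with the comparison between genotypes under cisplatin.

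The log2 rise was largest for Lcn2, at 7.72 ± 0.64 (SE, limma adjusted p = 5.23e-05), from 0.849 ± 0.882 to 377 ± 128 TPM (SD, n = 3). Havcr1 rose by 5.65 ± 0.86 on the log2 scale (limma adjusted p = 9.61e-04), with means of 12.1 and 432 TPM. One FAN1KO saline kidney had only 51 Havcr1 reads, while no FAN1KO cisplatin kidney had fewer than 11446. Spp1 rose 7.56 times in mean and Clu 5.34 times, and both were already abundant under saline, with FAN1KO means of 1131 and 406 TPM.

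Vcam1 was at 1.10, 5.64 and 5.19 TPM in the FAN1KO saline kidneys and rose by 4.25 ± 0.57 on the log2 scale (SE, limma adjusted p = 5.22e-04). Without the Y-linked libraries this rise was 3.56 (limma adjusted p = 3.24e-05). Cd44, at 0.375, 0.903 and 0.347 TPM under saline, rose by 3.19 ± 0.38 (SE, limma adjusted p = 3.02e-04). Sox9, at 0.339, 0.656 and 0.646 TPM, rose by 2.63 ± 0.21 (SE, limma adjusted p = 4.82e-05). These 3 genes were near or under the filter of 1 TPM, or a few TPM above it, before treatment. Anxa2, already at 24.2, 96.2 and 62.2 TPM under saline, rose by 2.86 ± 0.54 (SE, limma adjusted p = 0.00282).

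Vim had the smallest rise, from 16.2, 41.4 and 31.8 TPM under saline (log2 fold change 1.27 ± 0.46 SE, limma adjusted p = 0.0466). Its call was lost under 13 of the 23 alternatives, among them the replicate block (limma adjusted p = 0.0575) and median-ratio scaling (fold change 0.82, 0.0861). The Spp1 call was lost without FAN1KO saline 1 (limma adjusted p = 0.0519) or FAN1KO cisplatin 1 (0.0512). The other 7 markers kept this call under each alternative.

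In wild-type kidneys none of the 9 markers passed the test for cisplatin against saline (limma), although all 9 fold changes were above 0 and 3 had an unadjusted p under 0.05. Voom on recovered reads called 0 as well. Few genes passed at all, with 0.0601% of those tested called higher. The median log2 fold change was 0.46 over the markers and 0.08 over all genes tested.

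Vcam1 was at 3.51, 4.02 and 1.96 TPM in the wild-type saline kidneys and at 8.16, 37.6 and 35.3 TPM in the wild-type cisplatin kidneys. The groups did not overlap and the means were 8.55 times apart (log2 fold change 2.53 ± 0.57 SE, limma adjusted p = 0.387). Without wild-type cisplatin 1 the fold change was 3.21 and passed the test (limma adjusted p = 0.0252). It also passed in the 8 libraries without Y-linked RNA, at 2.98 (limma adjusted p = 9.66e-04).

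Cd44 was at 0.625, 0.786 and 0.339 TPM in the wild-type saline kidneys and did not overlap with the cisplatin kidneys either (log2 fold change 1.43 ± 0.38 SE, limma adjusted p = 0.765). Vcam1 and Cd44 were the 2 markers with no overlap, against 5.2% of all genes tested. Lcn2 was 6.11 times higher in mean, with overlap (log2 fold change 1.92 ± 0.64 SE, limma adjusted p = 1). It was called, at 2.76, only without wild-type cisplatin 1 (limma adjusted p = 0.0370). Without the Y-linked libraries Lcn2 was at 2.56 and was not called (limma adjusted p = 0.0982). Havcr1, Spp1, Clu, Sox9, Anxa2 and Vim had log2 fold changes of 0.08 to 0.55 with overlapping groups. For Havcr1 the 95% interval ran from -1.79 to 2.03.

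The order of the group means was alike for most markers. FAN1KO cisplatin was highest for 9 of 9 and wild-type cisplatin second for 8, the exception being Clu, whose wild-type saline mean of 423 TPM was above its wild-type cisplatin mean of 417 TPM. The neighbours next in this order overlapped for all but Vcam1 and Cd44, and the lowest pair for all but Lcn2. The 9 genes together made up 1.21 ± 0.32% of all TPM (SD, n = 3) in FAN1KO cisplatin kidneys, 0.213 ± 0.120% in wild-type cisplatin, 0.166 ± 0.096% in wild-type saline and 0.165 ± 0.088% in FAN1KO saline kidneys.

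Whether cisplatin changed the markers more in FAN1KO than in wild-type mice was tested as the interaction of genotype and treatment. It was positive for all 9 and passed for Havcr1, Lcn2 and Sox9, against 5.22% of all genes with a positive call. On the log2 scale it was 5.53 ± 1.22 for Havcr1 (SE, limma adjusted p = 0.0300), 5.80 ± 0.90 for Lcn2 (0.0111) and 2.17 ± 0.30 for Sox9 (0.00640). Part of the value of Havcr1 and Lcn2 came from their lower FAN1KO saline levels, which enter this difference. Clu (2.28, limma adjusted p = 0.0624), Cd44 (1.76, 0.0752), Anxa2 (2.41, 0.0859), Spp1 (2.73, 0.177), Vcam1 (1.72, 0.214) and Vim (0.72, 0.520) did not pass. The Havcr1 call was lost under 8 of 22 alternatives, among them the replicate block (limma adjusted p = 0.0548) and the fit without the 4 Y-linked libraries (0.0542), which called 5 markers (Lcn2, Spp1, Clu, Sox9 and Anxa2) and gave 13.4% of all genes a positive call. In that fit the value of Vcam1 was 0.59 (limma adjusted p = 0.0764).

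Other genes known to rise in injured tubules were described from a list of 42, all of which were tested. Under cisplatin, 29 were higher and 1 was lower in FAN1KO than in wild-type kidneys, with a median log2 fold change of 1.83. Of all genes tested, 19.6% were called higher and 4.37% lower, and the median was 0.24. The largest differences were those of Krt20, a keratin of stressed epithelium (4.58 ± 0.54 SE, limma adjusted p = 5.95e-04), S100a6, a calcium-binding protein (4.19 ± 0.48, 4.81e-04), and Anxa3, an annexin (3.48 ± 0.50, 0.00148). Krt20 went from 4.44 ± 3.49 TPM in wild-type to 118 ± 62.5 TPM in FAN1KO cisplatin kidneys (SD, n = 3). It reached 1 TPM in cisplatin libraries only. Mmp7, also among the genes called higher, reached 1 TPM in the FAN1KO cisplatin libraries only. Both genes therefore entered the test through the treated mice, Mmp7 through the group where it was high. Bcat1, an enzyme of branched-chain amino acid breakdown, was the gene that was lower (-1.49 ± 0.45 SE, limma adjusted p = 0.0373). It was also lower under saline (-2.74 ± 0.45, 0.0215), and its calls under cisplatin and saline were lost under 10 and 7 of the 23 alternatives, both with the replicate block (limma adjusted p = 0.0635 and 0.0656). In FAN1KO kidneys 35 of the 42 rose with cisplatin, against 34.9% of all genes tested. In wild-type kidneys 2 did, Cdkn1a and Gdf15, which respond to DNA damage, against 0.0601% of all genes tested. That count was 0 with the replicate block, with the 6 wild-type libraries alone and without any 1 of 5 wild-type libraries, 7 without wild-type cisplatin 1, and 8 in the libraries without Y-linked RNA. In the settings with a count of 0, 0 of all genes tested were called. In those with 7 and 8, 0.274% and 0.401% were called higher.

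**Figure D3:**
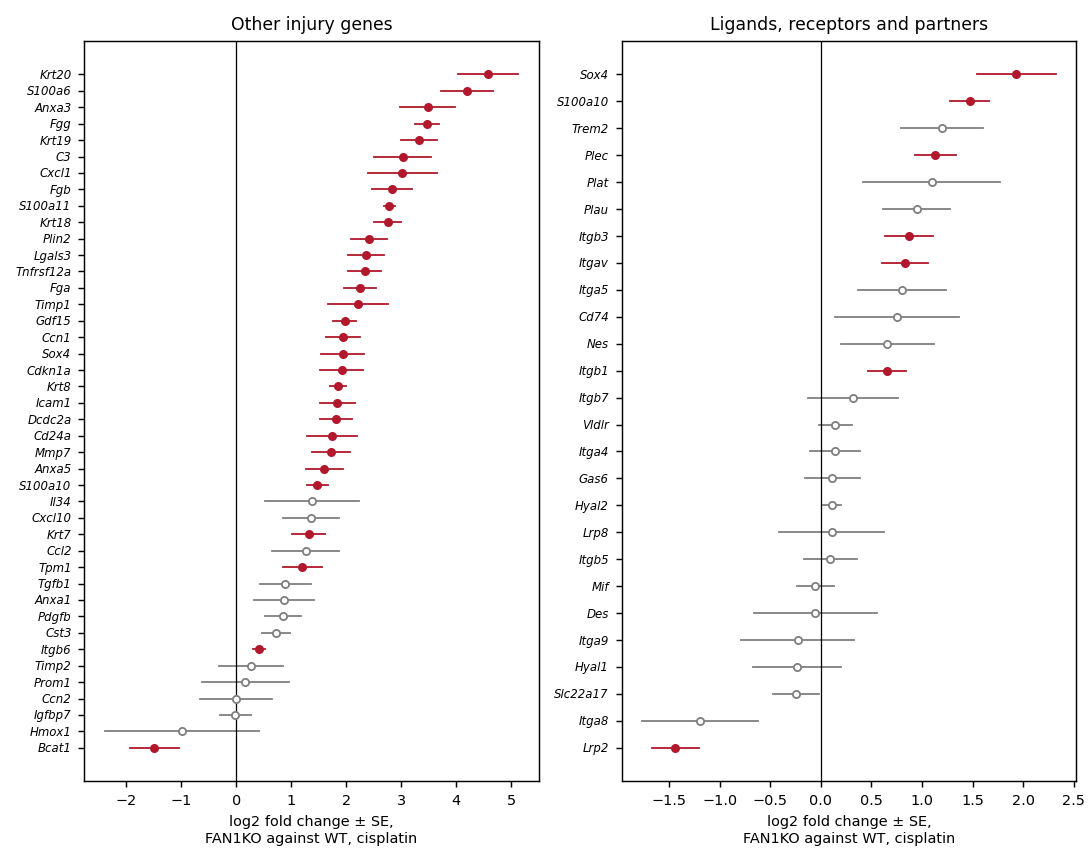
Log2 fold change (points) ± SE (lines) between FAN1KO and wild-type cisplatin kidneys, 3 mice each, for the 42 other injury genes and the 26 tested ligands, receptors and partners of the markers. Filled points have a limma adjusted p under 0.05; 29 rose and 1 fell on the left, 6 rose and 1 fell on the right.

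Genes that bind or act with the markers were taken from a separate list. Of 32 listed, 26 were tested, 6 were higher and 1 was lower under cisplatin, with a median log2 fold change of 0.23. This is near the background of 19.6% called higher and a median of 0.24 over all genes. S100a10, the partner of Anxa2 in a membrane complex, was at 254, 396 and 397 TPM in the wild-type cisplatin kidneys and at 1039, 972 and 848 TPM in the FAN1KO cisplatin kidneys. It was higher by 1.47 ± 0.19 on the log2 scale (SE, limma adjusted p = 9.77e-04). Plec, which links vimentin filaments to other structures, was higher by 1.13 ± 0.21 (SE, limma adjusted p = 0.00438), and Sox4, a transcription factor listed beside Sox9, by 1.93 ± 0.39 (0.00677).

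Among 6 listed integrin chains that can bind osteopontin as part of a pair, Itgav, Itgb1 and Itgb3 were higher and Itgb5, Itga5 and Itga8 did not pass. Of all genes tested, 19.6% were called higher. Itgav was higher by 0.83 on the log2 scale (limma adjusted p = 0.0252), Itgb3 by 0.87 (0.0239) and Itgb1 by 0.65 (0.0330). The calls of Itgav and Itgb1 were lost under 4 and 7 alternatives. Itgb3 was at 0.563, 1.02 and 1.15 TPM in the wild-type cisplatin kidneys, near the filter, and its call was not followed over the alternatives. The log2 fold changes were 0.09 for Itgb5 (limma adjusted p = 0.818), 0.80 for Itga5 (0.203) and -1.20 for Itga8 (0.151). Itga9, which binds a cut form of osteopontin, was at -0.23 (limma adjusted p = 0.789). Itga4, which pairs with Itgb1 to bind Vcam1 on leukocytes, was near 1 TPM in both groups (log2 fold change 0.14, limma adjusted p = 0.716). Lrp2 (megalin), an endocytic receptor of the proximal tubule that takes up Lcn2, was at 217, 289 and 211 TPM in the wild-type cisplatin kidneys and at 67.6, 78.3 and 122 TPM in the FAN1KO cisplatin kidneys. It fell by 1.44 ± 0.23 on the log2 scale (SE, limma adjusted p = 0.00271). Slc22a17, the other known Lcn2 receptor, was at 48.3 ± 8.6 and 40.2 ± 4.6 TPM (SD, n = 3; limma adjusted p = 0.463), and passed as lower only with median-ratio scaling (log2 fold change -0.55, limma adjusted p = 0.0189).

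Relatives of the markers by gene family were also counted. Of 42 listed, 24 were tested, and 9 were higher and none was lower under cisplatin in FAN1KO, with a median log2 fold change of 0.66. Of all genes tested, 19.6% were called higher and 4.37% lower, and the median was 0.24. The largest were Anxa3, Sox4 and Icam1, an adhesion molecule related to Vcam1 (1.84 ± 0.32 SE, limma adjusted p = 0.00369). These genes are also on the list of other injury genes, so the counts of these lists overlap. The 18 relatives that were not tested were under the filter.

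Lists of cell type markers were counted in the same comparisons, and whether they moved with the 9 genes was not tested. Under cisplatin, 19.6% of all genes tested were called higher and 4.37% lower in FAN1KO than in wild-type kidneys. The 16 proximal tubule markers summed to 4992, 5590.5 and 22825 TPM in the FAN1KO cisplatin kidneys and to 85469, 23999 and 25781 TPM in the wild-type cisplatin kidneys. Of the 16, 9 were lower. Kap, named after its values were seen, made up 83.0% of the highest of these sums. It was not called (limma adjusted p = 0.0648) and was at 12173 to 70903 TPM in wild-type cisplatin and 555 to 14075 TPM in FAN1KO cisplatin kidneys. Without Kap the other 15 summed to 4268, 5036 and 8750 TPM in the FAN1KO cisplatin kidneys and to 14566, 11825 and 13435 TPM in the wild-type cisplatin kidneys. The count of 9 ranged from 4 (without FAN1KO cisplatin 1 or 2, or wild-type cisplatin 3) and 5 (without wild-type cisplatin 1 or 2) to 13 (libraries without Y-linked RNA). Of all genes tested, 2.47 to 3.47% were called lower in these fits without 1 library, and 7.76% in the libraries without Y-linked RNA. The 10 macrophage markers summed to 731, 332 and 303 TPM in the FAN1KO cisplatin kidneys and to 87.4, 304 and 248 TPM in the wild-type cisplatin kidneys. Cd14 and Cd68 were higher (limma adjusted p = 0.0386 and 0.0499), but neither was called with the replicate block, with mitochondrially encoded genes left out, or without FAN1KO cisplatin 1 or wild-type cisplatin 1, and 4 of the 10 were called in the libraries without Y-linked RNA. In those libraries 28.9% of all genes tested were called higher. The main-fit count of 2 of 10 was near the 19.6% of all genes called higher. In FAN1KO kidneys 7 of the 10 rose with cisplatin, against 34.9% of all genes tested. Spp1, Vcam1, Cd44, Vim and Anxa2 are also expressed by macrophages or other interstitial cells, and the part of these cells in the results was not tested. Mitochondrially encoded genes held 10.2 to 16.7% of all TPM in FAN1KO cisplatin kidneys and 18.3 to 21.2% in wild-type cisplatin kidneys. With these genes left out, 7 of the 9 markers and 12.2% of all genes were called higher.

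Among the other lists under cisplatin, 3 of 12 loop and distal tubule markers were higher and 2 were lower, 1 of 7 podocyte and parietal and 1 of 7 lymphocyte markers was higher, and none of 8 endothelial or 9 fibroblast markers passed. Of all genes tested, 19.6% were called higher and 4.37% lower. Of 8 markers of neutrophils, which also express Lcn2, 2 were tested and none was called. Their sum was 6.53 to 10.4 TPM in FAN1KO cisplatin, 1.55 to 5.44 TPM in wild-type cisplatin, 0.569 to 6.76 TPM in FAN1KO saline and 6.79 to 8.78 TPM in wild-type saline kidneys. All 5 tested erythroid markers were lower in FAN1KO cisplatin kidneys, where they summed to 8.01 to 85.5 TPM against 3050 to 7935 TPM in wild-type cisplatin. None of the 4 Y-linked genes was called.

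**Figure D4:**
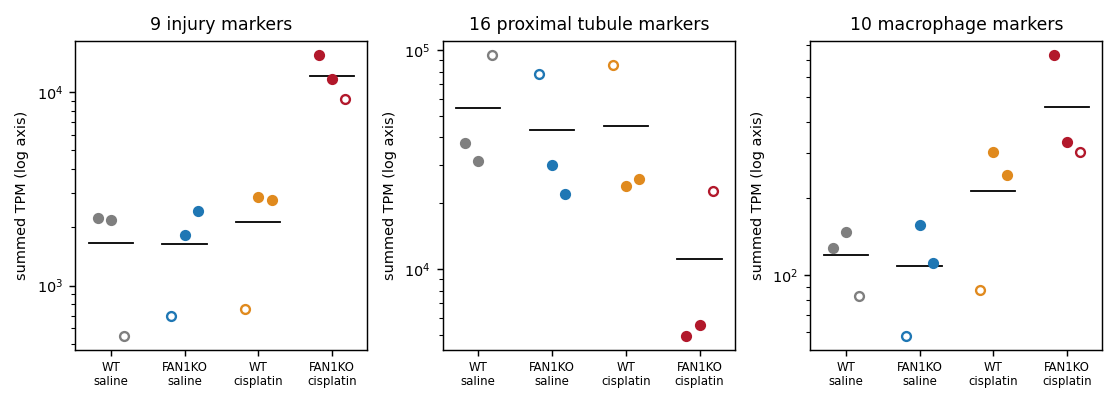
Summed TPM (log axis) of the 9 injury markers, 16 proximal tubule markers and 10 macrophage markers in each library, by group (WT, wild-type). Points are mice, lines are means of 3 mice, and open points are the libraries with Y-linked RNA. These had the highest proximal tubule sum of their group, of which the single gene Kap made up 61.7 to 84.8%. Without Kap the wild-type saline libraries were at 14063 to 14712 TPM, with the open point at 14493 TPM. In the other groups the library with Y-linked RNA stayed the highest without Kap. It was at 17560 TPM in FAN1KO saline, 14566 TPM in wild-type cisplatin and 8750 TPM in FAN1KO cisplatin.

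For 8 of the markers, the gene is given whose profile over the 12 libraries was most like that of the marker, by the root mean square difference of standardised log2(TPM + 1) values. This was Golm1 for Spp1 (0.080 SD), St6gal1 for Anxa2 (0.095), Axl for Vim (0.12), Il1f6 for Cd44 (0.13) and Gtf2h4 for Lcn2 (0.13). Masp1 (0.15) was nearest to Clu, Aoc1 (0.19) to Vcam1 and Oplah (0.26) to Havcr1. Havcr1 had the least similar neighbour of these 8. The values are standardised, so the level and the size of a change do not enter. Group means ran from 13.8 to 21.9 TPM for Gtf2h4 and from 0.849 to 377 TPM for Lcn2. Il1f6 was at 0.032 TPM in both saline groups.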

How the data were processed

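Gene-level TPM values of 12 whole-kidney libraries were used as deposited by the authors. The build is mm10 and the tool named in the submitters' notes is limma; aligner, counter and annotation are not given in the sources used here. The markers and gene lists were chosen with earlier results of these data known. Genes with at least 1 TPM in at least 3 libraries (14972 of 27179) were tested with limma 3.58.1 (R 4.3.3) on log2(TPM + 1) with a mean-variance trend, all 12 libraries in 1 fit of 4 group means, and Benjamini-Hochberg adjustment over all genes with a threshold of 0.05. A fold change on this scale understates that of genes with low values. Exact permutation tests were two-sided. Labels name separate mice, 3 per group. Whole reads were recovered from the TPM steps (within 0.02 reads) for 19497 of 19497 genes, giving 37201916 to 82947187 reads per library; for 278 of 295 small RNAs the recovered length equalled the annotated one. Named genes were the 9 markers, the partners of the markers, the 3 largest called rises and falls of each list under cisplatin, and for each marker the nearest profile (that of Sox9 is not reported here); list members outside this rule, such as Cdkn1a, Gdf15, Cd14, Cd68, Kap and the other integrin chains, were named after their values were seen. Lists covered other injury genes, ligands and partners, family relatives, proximal tubule, loop and distal tubule, podocyte and parietal, endothelial, fibroblast, macrophage, neutrophil, lymphocyte, erythroid and Y-linked genes. Libraries with a mean log2 of the Y-linked genes over 1 were taken as holding Y-linked RNA. Of 23 alternatives, 2 were chosen after seeing the data: voom on recovered reads, and the 8 libraries without Y-linked RNA. The fit was tested on simulated data.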

Additional observations from a re-analysis of the deposited data

Results flagged for a closer look

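For 10 of the genes described, the effect of cisplatin differed between the genotypes by the test of the interaction (limma, 3 mice per group, adjusted p under 0.05). Among the markers the interaction was 5.53 on the log2 scale for Havcr1 (SE 1.22, limma adjusted p = 0.0300), 5.80 for Lcn2 (SE 0.90, 0.0111) and 2.17 for Sox9 (SE 0.30, 0.00640). Among other injury genes and relatives it was 4.45 for Krt20 (SE 0.77, 0.0143), 4.64 for S100a6 (SE 0.67, 0.00815), 3.21 for Anxa3 (SE 0.70, 0.0292) and 2.01 for Icam1 (SE 0.45, 0.0323). Among the partners it was 1.97 for S100a10 (SE 0.27, 0.00640), 1.16 for Plec (SE 0.29, 0.0450) and -1.39 for Lrp2 (SE 0.33, 0.0390). The interaction calls of Plec, Lrp2, Havcr1, Anxa3, Icam1 and Krt20 were lost under 14, 12, 8, 7, 5 and 1 of 22 alternatives, and those of Lcn2, Sox9, S100a6 and S100a10 under none. Groups of 3 mice are too small to test whether a single sample is an outlier, but each library was left out in turn. The limma adjusted p of the interaction then ranged from 0.02 to 0.0777 for Havcr1, from 0.00766 to 0.0339 for Lcn2 and from 0.00816 to 0.0244 for Sox9.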

How the results depend on the processing

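The genotype comparison under cisplatin called 7 to 9 markers under the other settings and 3 to 8 when 1 library was left out. Of the genes tested, 8.68 to 40.3% were called higher under those settings, and 7.81 to 21% when 1 library was left out. In wild-type kidneys cisplatin called 1 marker, Vcam1, with the Y-linked term and 1 in the 8 libraries without Y-linked RNA (a setting chosen after seeing the data), and 0 to 2 with 1 library left out; the interaction called 8 and 5 under these first settings, in which 27.3% and 13.4% of all genes had a positive interaction call and 0.381% and 0.401% were called higher in wild-type kidneys. Every change of direction was in a value that did not pass the test, and the cause was not tested. Under saline, leaving out 1 library gave log2 fold changes of -0.69 to 0.77 for Spp1, -0.45 to 0.31 for Clu, -0.17 to 0.66 for Vcam1, -0.42 to 0.56 for Anxa2, -0.21 to 0.045 for Cd44 and -0.26 to 0.48 for Vim, and in the libraries without Y-linked RNA they were -0.024 for Spp1 and -0.18 for Clu. In wild-type kidneys it gave -0.34 to 0.68 for Havcr1, -0.36 to 1.24 for Spp1 and -0.41 to 0.34 for Clu, which was also -0.026 with median-ratio scaling and -0.15 without the Y-linked libraries. For Itga4 under cisplatin the range was -0.059 to 0.28. Median-ratio scaling moved the median of all genes from 0.24 to -0.024 between genotypes under cisplatin and from 0.37 to -0.03 for cisplatin in FAN1KO, and the split of calls under cisplatin from 2931 higher and 654 lower to 1300 and 1154. Without a filter, 22557 genes were tested.

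Deviations of same-numbered libraries from their group means had a mean correlation of -0.195 (range -0.607 to 0.600), against 0.123 for other numbers. In every comparison the libraries with Y-linked RNA had different replicate numbers. These correlations therefore cannot decide whether replicate numbers pair the mice. With the replicate block 8 markers were called between genotypes under cisplatin, 8 for cisplatin in FAN1KO (all but Vim), 2 for the interaction (Lcn2 and Sox9) and 0 for genotype under saline and for cisplatin in wild-type. Of all genes tested, this fit called 15.9% higher between genotypes under cisplatin and 32% higher for cisplatin in FAN1KO. A positive interaction was called for 2.34%. Under saline 0.214% were called higher and 0.194% lower, and in wild-type kidneys 0 genes were called. With 12 libraries the fit left 8 residual degrees of freedom, and few reads (under 50 for Lcn2 in each FAN1KO saline library) limit the lowest levels.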
